A study of Mus musculus with 37 samples.

Results

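Cerebella of mice with 3 copies of a stretch of chromosome 7, the mouse counterpart of human 16p11.2, were compared with cerebella of mice with 2 copies. The members were the 3 dp/+ mice and the 3 +/+ mice whose cerebellar arrays are so labelled, which makes 6 of the 31 region samples in the series. The dp/+ mice carried a duplication of the segment on 1 chromosome and the +/+ mice were wild type. All were male F1 hybrids of C57BL/6N and 129Sv, and their age was not given. The 2 df/+ mice, which carried a deletion of the segment on 1 chromosome, are set beside them where useful. Total RNA of 4 regions (cerebellum, cortex, brain stem and olfactory bulb) was labelled with biotin and hybridised to 37 Affymetrix gene-level arrays, 8 of which hold the samples compared here. The genotype is constitutional, so every cell of the cerebellum carried the third copy.

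The cerebellum coordinates movement. Most of its neurons are granule cells, whose axons excite Purkinje cells, the only cells that send signals out of the cerebellar cortex. Gain and loss of the human segment are linked to autism, and a gene present in an additional copy is often transcribed in proportion to its copies, although feedback can hold its RNA nearer to the usual level.

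The material had the markers of its label. Among genes listed as markers of granule cells, 15 of 16 measured were highest in the cerebellum of the 4 regions in +/+ mice, and 13 of 14 listed for Purkinje cells were. Values are log2 signals. Of the 19938 genes measured, those with a mean over the 8 cerebella at or above the median of 7.91 are called brighter and those below it dim, with 9969 in each class. The median SD between the +/+ mice was 0.075 for brighter and 0.087 for dim genes, and between the dp/+ mice it was 0.10 and 0.11. Pairs of arrays of 1 cerebellum had a median technical SD of 0.058 (+/+ mouse 3) and 0.11 (dp/+ mouse 1). Each number is that of a separate mouse by the labels, and precision is limited by how few arrays there are.

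The dp/+ arrays had a narrower range of values than the +/+ arrays, and this touches every result outside the duplicated segment. The lower quartile of all genes was 6.46, 6.34 and 6.37 in dp/+ mice 1, 2 and 3, against 6.31, 6.21 and 6.22 in the +/+ mice. The upper quartile was 9.36, 9.44 and 9.41 against 9.54, 9.57 and 9.54. The quartiles of the groups did not overlap. In 10 level bins, each with an equal share of the genes from dimmest to brightest, the median difference of dp/+ from +/+ (log2) was 0.10, 0.14, 0.15 and 0.12 in the 4 dimmest, -0.03 in the fifth, and -0.14, -0.16, -0.15, -0.12 and -0.051 in the 5 brightest. A shift of the same form was present in df/+ mouse 2, with 0.13 in the third bin and -0.15 in the seventh, and not in df/+ mouse 1, with -0.023 and -0.057. After quantile normalisation repeated within each region the medians of the bins lay between -0.016 and 0.031, and after cyclic loess between -0.051 and 0.031. The part of this shift in the calls given here was not tested apart from these renewed normalisations.

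**Figure D1:**
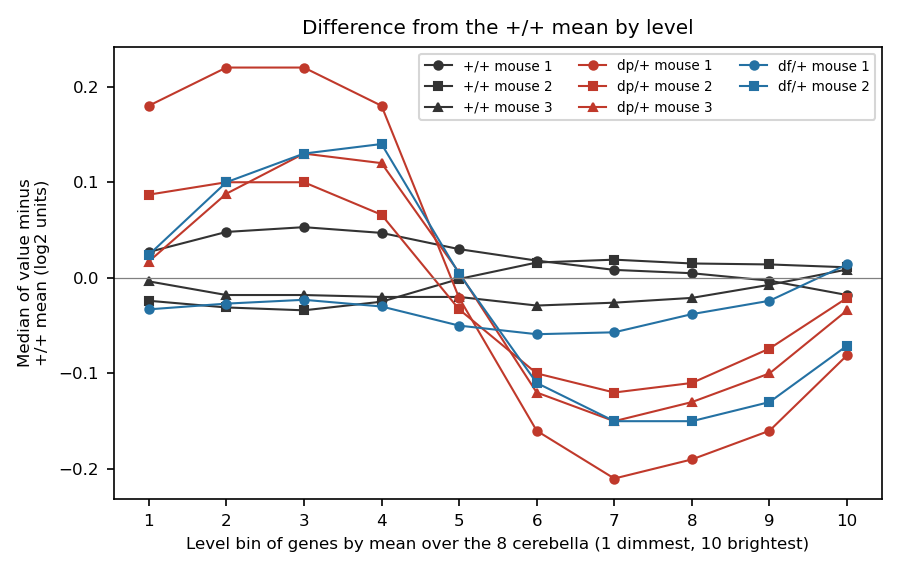
Median difference of each cerebellum from the mean of the 3 +/+ cerebella (log2 units, vertical axis) in 10 level bins from dimmest to brightest (horizontal axis), with a line per mouse. All 3 dp/+ mice and df/+ mouse 2 lie above 0 among dim genes and below 0 among brighter genes, while the +/+ mice and df/+ mouse 1 stay nearer to 0.

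The first comparison asked whether the duplicated genes are transcribed at a higher level in the cerebellum with 3 copies. The segment lists 33 genes from Slx1b to Septin1. Of these, 30 were measured. The other 3, Mapk3, Prrt2 and Ino80e, were not analysed here for want of a probe set with 1 symbol. The mean over the 30 genes was 9.00, 8.94 and 9.00 in dp/+ mice 1, 2 and 3 and 8.72, 8.67 and 8.66 in the +/+ mice. The groups did not overlap. The means of 8.98 ± 0.035 and 8.68 ± 0.035 (SD, n = 3 each) differed by 0.30 log2, which makes dp/+ 123% of +/+ on the scale of the array. An exact two-sided permutation test over the 20 assignments gave p = 0.1, the smallest that 3 against 3 mice can give. Over the 19 brighter members alone the difference was 0.33.

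The mean difference was 0.35 after quantile normalisation within regions and 0.34 after cyclic loess. It was between 0.29 and 0.32 when 1 mouse was left out. The segment's mean differed from that of the same +/+ mice in the 2 df/+ cerebella by -0.53 and -0.48. In the other regions the dp/+ mice were 0.25 to 0.29 (brain stem), 0.33 and 0.37 (cortex) and 0.25 to 0.27 (olfactory bulb) above the +/+ mean, so the cerebellum, at 0.26 to 0.32, lay among them.

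**Figure D2:**
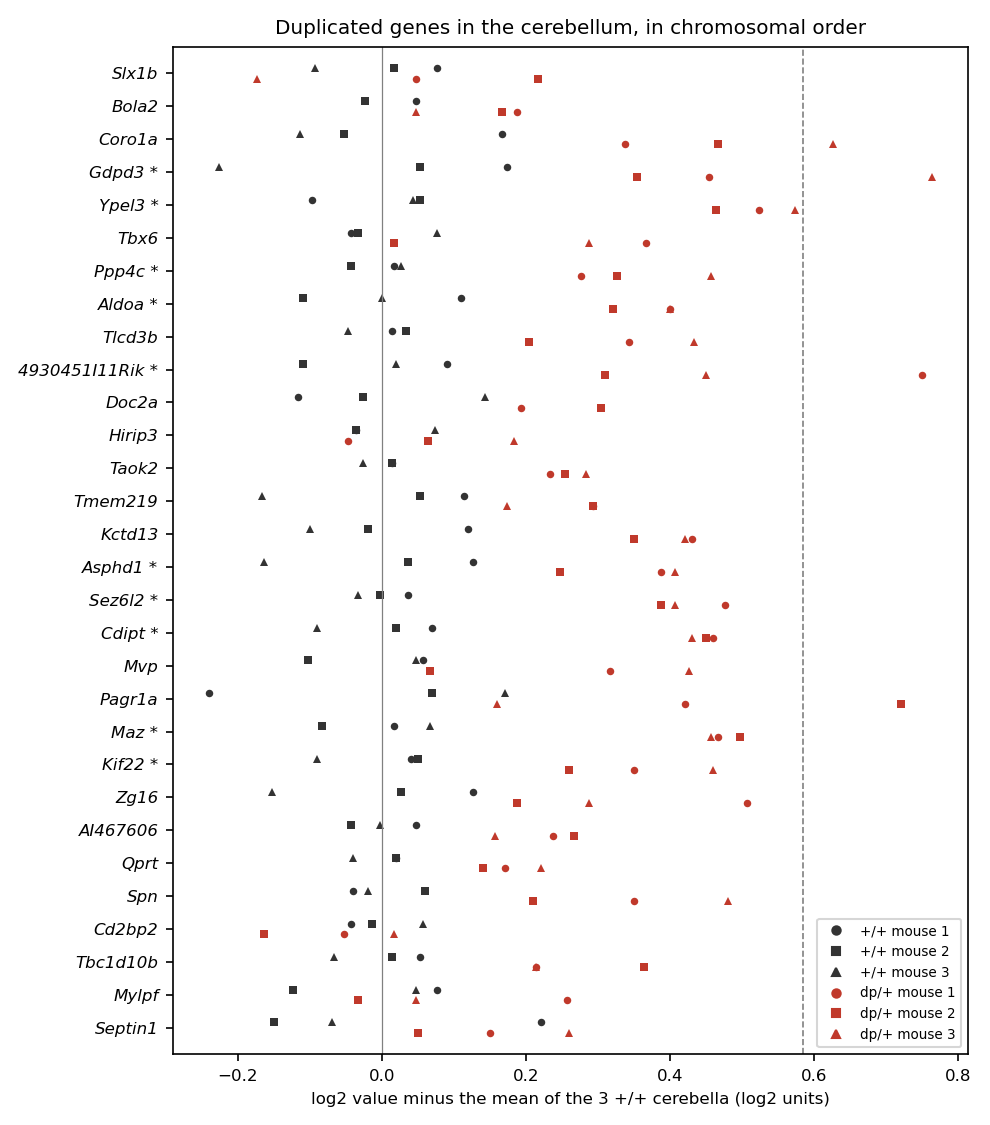
Values of the 30 measured duplicated genes in each cerebellum, less the mean of the 3 +/+ cerebella (log2 units, horizontal axis), in chromosomal order from top to bottom, with a point per mouse. The dashed line marks 0.58, the log2 of 3 copies over 2, and an asterisk marks the 10 genes past the threshold. In 22 of the 30 genes the 3 dp/+ points lie to the right of all 3 +/+ points.

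Gene by gene, 10 of the 30 rose and none fell (limma, adjusted p below 0.05 over all genes). The background for higher calls was 2.29% of all genes, 0.592% of brighter and 3.98% of dim ones, and for lower calls 3.26% of all genes. At an unadjusted p below 0.05, 23 were higher and 0 lower. In either direction 5679 of all 19938 genes had such a p. All 3 dp/+ mice were above all 3 +/+ mice in 22 of the 30 and below them in 0. Over all genes 16.1% lay above without overlap, with 4.14% among brighter and 28.0% among dim genes. Below without overlap lay 20.3% of all, 33.0% of brighter and 7.60% of dim genes. The median difference of the 30 was 0.33, against -0.019 over all genes, and 28 of the 30 lay above the median of their level bin. The count of calls changed with the mouse left out, which also leaves its group smaller. Without +/+ mouse 1, dp/+ mouse 2 and dp/+ mouse 3, 10, 8 and 7 genes passed (limma). Without dp/+ mouse 1 or without +/+ mouse 2, 1 gene passed, and 4 did without +/+ mouse 3. The difference of the segment's mean was 0.29 without dp/+ mouse 1, +/+ mouse 2 or +/+ mouse 3, so the count moved and the size hardly did.

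Ypel3, a small nuclear protein of the Yippee-like family, had the smallest p of the segment. It read 12.07, 12.01 and 12.12 in the dp/+ cerebella and 11.45, 11.6 and 11.59 in the +/+ cerebella. Every dp/+ value was above every +/+ value. The difference was 0.52 ± 0.079 log2 (SE), or 143% of +/+, with a limma adjusted p of 0.00415, and the call held under all 18 alternatives tried. In df/+ mice Ypel3 read 11.08 and 11.01.

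Next came genes of general metabolism. Cdipt, which makes phosphatidylinositol, read 11.29, 11.28 and 11.26 in dp/+ and 10.9, 10.85 and 10.74 in +/+. The groups were far apart beside their spread, with 136% of the +/+ level (limma adjusted p = 0.0153). Aldoa, the glycolytic aldolase and the brightest of the segment, read 13.29, 13.21 and 13.29 in dp/+ against 13.0, 12.78 and 12.89 in +/+. It rose to 129% (limma adjusted p = 0.017). Both lost the call without dp/+ mouse 1 and without +/+ mouse 2, and kept it under the other 16 alternatives.

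Maz, a zinc finger transcription factor, read 10.52, 10.55 and 10.51 in dp/+ and 10.07, 9.97 and 10.12 in +/+. The 3 dp/+ mice lay close together, and the level was 139% of +/+ (limma adjusted p = 0.0202). Ppp4c, the catalytic subunit of protein phosphatase 4, read 9.71, 9.76 and 9.89 against 9.45, 9.39 and 9.46, without overlap. It rose to 128% (limma adjusted p = 0.0382), and lost the call without any one of the 6 mice. Other regulators of the segment, Taok2, Pagr1a, Tbx6 and Hirip3, did not pass.

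The other 3 brighter genes that rose were Sez6l2, Asphd1 and 4930451I11Rik. Sez6l2, a neuronal surface protein, read 11.47, 11.38 and 11.4 in dp/+ and 11.03, 10.99 and 10.96 in +/+, and rose to 134% (limma adjusted p = 0.0267). Asphd1, a little-studied protein with an aspartate hydroxylase domain, read 9.89, 9.75 and 9.91 against 9.63, 9.54 and 9.34, and rose to 127% (limma adjusted p = 0.0265). Neither overlapped between groups. The unnamed transcript 4930451I11Rik read 9.01, 8.57 and 8.71 against 8.35, 8.15 and 8.28, with 141% (limma adjusted p = 0.0427), and was not past the threshold after either renewed normalisation. Its df/+ values were 8.3 and 8.83, with a mean at 123% of +/+. The value of 8.83 lay above all +/+ mice and above the dp/+ values of 8.57 and 8.71.

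Of the dim members, Gdpd3 and Kif22 rose. Gdpd3, a lysophospholipase D, read 8.81, 8.71 and 9.12 in dp/+ and 8.53, 8.41 and 8.13 in +/+, or 144% (limma adjusted p = 0.0366). Its class is set by the df/+ mice, which read 5.63 and 5.53 and pull its mean under the median. Kif22, a kinesin that moves chromosome arms, read 6.87, 6.78 and 6.98 against 6.56, 6.57 and 6.43, or 129% (limma adjusted p = 0.0259). In df/+ it was at 97.4% of +/+. Kif22 lay in a level bin whose median difference was 0.12, and it was not past the threshold after either renewed normalisation. The other 8 of the 10 kept their call after both.

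The levels of the 10 ran from 127% to 144% of +/+, with a median of 135%, where 150% would be proportional to copies. The 95% interval of the difference lay below the log2 of 3 over 2 for 4 of them and for 19 of all 30. These are ratios on the array's own scale, with no RNA standard.

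The other 20 did not pass, and 13 of them had an unadjusted p below 0.05. Just outside the threshold were Kctd13, an adaptor of Cul3 ubiquitin ligases (132% of +/+, limma adjusted p = 0.0535), Coro1a, an actin-binding protein of immune cells (139%, 0.0566), and Tlcd3b, a regulator of ceramide synthesis (126%, 0.0687). None of the 3 overlapped between groups. Just inside it was 4930451I11Rik, given above. Kctd13 read 9.88, 9.8 and 9.87 in dp/+ and 9.57, 9.43 and 9.35 in +/+. A p that missed the threshold does not show that a level was unchanged.

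Several genes known from work on this segment lay between. Taok2, a MAP kinase kinase kinase, was at 119% of +/+ (limma adjusted p = 0.134) with dp/+ values of 10.48 to 10.53 above +/+ values of 10.22 to 10.26. Doc2a, a calcium sensor of transmitter release, was dim in the cerebellum, with 7.29, 7.4 and 7.4 in dp/+ and 6.98, 7.07 and 7.24 in +/+ (120%, limma adjusted p = 0.115). Mvp, the major vault protein, was at 121% (0.0927), and Tbc1d10b, a GTPase-activating protein for Rab proteins, at 120% (0.107). Tmem219, a membrane receptor of a growth factor binding protein, was at 119% (0.122), and Pagr1a, a component of histone methyltransferase complexes, at 135% (0.123) with 1 dp/+ mouse, at 11.59, under the highest +/+ mouse at 11.6.

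Dim members that are not typical of neurons were at 106% to 127%. Spn, a leukocyte surface protein, was at 127% (limma adjusted p = 0.0725), Zg16, of zymogen granules, at 125%, Tbx6, a transcription factor of mesoderm, at 117%, AI467606 at 116%, Qprt, which degrades quinolinate, at 113%, Septin1 at 112% and Mylpf, a muscle myosin light chain, at 106%. In df/+ they were at 86.4% (Tbx6) to 115% (Spn) of +/+, with Septin1 at 105%, and AI467606, Mylpf, Qprt and Zg16 at 96% to 97.8%. Dim genes as a class were higher in dp/+ by a median of 0.11, and of these 7 genes Tbx6, Spn, Zg16, AI467606, Qprt and Septin1 lay above the median of their level bin. Mylpf did not, and its difference was below 0 after both renewed normalisations. The part of the level shift in these values was not tested.

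Besides Mylpf, 4 members differed from the +/+ level by 0.14 log2 or less in either direction. Slx1b, a subunit of a DNA structure-specific nuclease, read 9.37, 9.54 and 9.15 in dp/+ and 9.4, 9.34 and 9.23 in +/+, so the groups overlapped (difference 0.028, 95% interval -0.19 to 0.25). In df/+ it read 8.42 and 8.24, below all +/+ mice. Its neighbour Bola2, a protein of iron-sulfur cluster handling, was at 110% (limma adjusted p = 0.437). Hirip3, a histone-binding protein, read 7.21, 7.32 and 7.44 in dp/+ and 7.22, 7.22 and 7.33 in +/+, with a difference of 0.065 that was -0.018 after cyclic loess. Cd2bp2, a spliceosomal protein, was the 1 member below 0, with 8.5, 8.39 and 8.57 in dp/+ and 8.51, 8.54 and 8.61 in +/+ (difference -0.068, interval -0.25 to 0.11), and was above 0 after both renewed normalisations. In the other regions Slx1b differed by 0.28 to 0.35, Hirip3 by 0.25 to 0.32, Cd2bp2 by 0.20 to 0.48 and Bola2 by 0.047 (olfactory bulb), 0.28 (cortex) and 0.19 (brain stem). The test of the difference between the cerebellum and the mean of the other regions called 0 of the 30 (limma), with 6 at an unadjusted p below 0.05. Over all 19938 genes 2272 had such a p in that test.

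The sequence before the start of these genes is shown for 3 of them, to set a called gene of each brightness class beside a pair that was not called. The table of RefSeq promoters (GRCm38.p6) holds 24 of the 30 members. The 250 bases before the start are printed 5′ to 3′ on the gene's strand. Capitals mark the GC box (GGGCGG), the CCAAT box (CCAAT) and the TATA box (TATAAA), each searched on both strands.
Ypel3, chr7:126776713-126776962, + strand: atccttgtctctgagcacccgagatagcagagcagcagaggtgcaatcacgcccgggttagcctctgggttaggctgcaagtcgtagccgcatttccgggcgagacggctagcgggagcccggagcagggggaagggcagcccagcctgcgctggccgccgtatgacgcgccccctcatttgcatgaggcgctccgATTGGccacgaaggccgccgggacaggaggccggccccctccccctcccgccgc
Gdpd3, chr7:126766164-126766413, + strand: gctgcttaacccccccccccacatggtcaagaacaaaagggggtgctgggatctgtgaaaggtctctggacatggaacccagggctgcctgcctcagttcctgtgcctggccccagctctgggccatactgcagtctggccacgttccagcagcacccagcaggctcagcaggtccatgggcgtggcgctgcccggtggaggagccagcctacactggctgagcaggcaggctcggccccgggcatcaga
Bola2, chr7:126695750-126695999, + strand: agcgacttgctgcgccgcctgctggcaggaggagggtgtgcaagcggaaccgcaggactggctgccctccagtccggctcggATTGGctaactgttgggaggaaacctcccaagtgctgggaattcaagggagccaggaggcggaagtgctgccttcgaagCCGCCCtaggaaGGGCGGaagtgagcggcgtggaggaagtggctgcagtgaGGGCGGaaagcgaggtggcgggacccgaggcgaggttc
The Ypel3 stretch holds 23 CpG dinucleotides and 1 CCAAT box. The Gdpd3 stretch holds 6 CpG and none of the 3 boxes. The Bola2 stretch holds 18 CpG, 3 GC boxes and 1 CCAAT box, and Slx1b is transcribed from the other strand of nearly the same bases. Of all 32851 promoter entries, 32.7% hold a GC box, 33.8% a CCAAT box and 12.4% a TATA box in this window. Among the 31 entries of the segment, 13 hold a GC box, 8 a CCAAT box and 2 a TATA box.

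The neighbours of the segment, which have 2 copies in both groups, were listed on each side. On the Slx1b side 0 of 22 measured genes passed (limma, with 2 higher and 4 lower at an unadjusted p below 0.05) and the median difference was 0.0067. Over all 19938 genes 5679 had such an unadjusted p in either direction. On the Septin1 side 2 of 34 fell, beside 3.26% of all genes, and the median was -0.0075. Zfp553, a zinc finger protein, was at 76.3% of +/+ (limma adjusted p = 0.0394) and Kat8, a histone acetyltransferase, at 77.6% (0.0432). Both were brighter genes, and neither passed after quantile normalisation (0.13 and 0.205) or cyclic loess (0.0873 and 0.213).

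Outside the segment the comparison was made across all genes, with dim and brighter ones kept apart. Among brighter genes 51 rose and 511 fell, and among dim genes 395 rose and 138 fell (limma, adjusted p below 0.05). Genes called in either direction were 5.54% of all genes, and 5679 genes had an unadjusted p below 0.05. For brighter genes the background was 0.592% higher and 5.13% lower, and for dim genes 3.98% and 1.38%. The split had the same directions as the level shift. After quantile normalisation within regions the calls were 77 higher and 47 lower among brighter genes and 90 higher and 114 lower among dim genes. After cyclic loess they were 71 and 61, and 68 and 119. With arrays centred on their medians they were 177 and 264, and 1705 and 79. Past the threshold in all 3 of the deposited, quantile and loess values were 47 of the 51 higher and 43 of the 511 lower brighter genes, and 58 of the 395 higher and 65 of the 138 lower dim genes.

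These counts depended on which mouse was left out, which also leaves its group smaller. Among brighter genes they were 12 without dp/+ mouse 1, 3 without +/+ mouse 2, 228 without +/+ mouse 3 and 320 without +/+ mouse 1. They were 422 without dp/+ mouse 2 and 495 without dp/+ mouse 3. Among dim genes they were 4, 2, 120, 309, 308 and 898 without the same mice in the same order. With the 6 cerebella alone, 834 brighter and 818 dim genes passed, and 3.68% of all genes were called higher and 4.67% lower. In that fit 14 duplicated genes rose, among them all 10 given above.

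**Figure D3:**
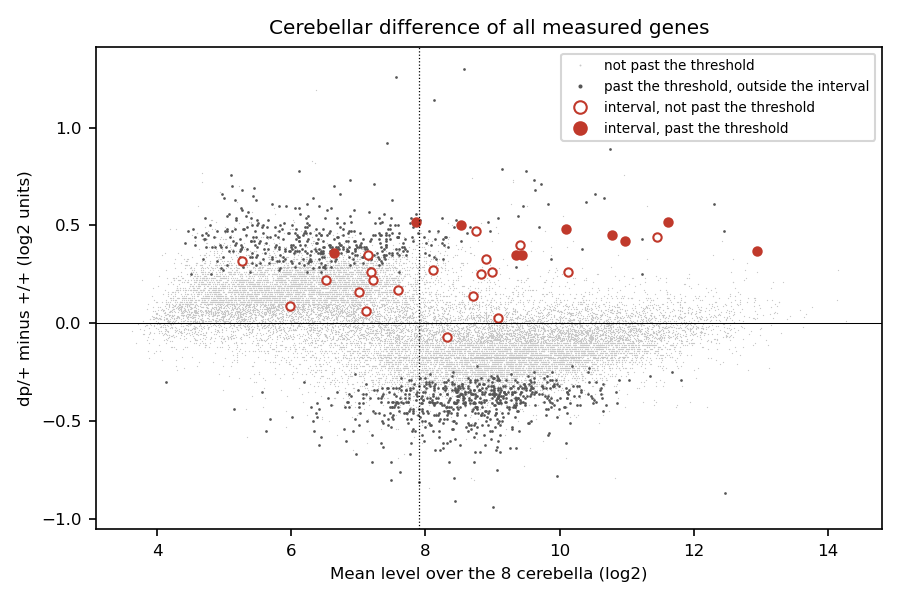
Difference of the dp/+ from the +/+ mean (log2 units, vertical axis) against the mean level over the 8 cerebella (log2, horizontal axis), with a point per gene and the dotted line at the median of 7.91. Most dark points above 0 lie left of the line and most below 0 right of it, and the duplicated genes, in red, lie between -0.068 and 0.52.

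Among brighter genes that fell, the 12 named by the smallest p without overlap were at 61.1% to 72.9% of +/+. All 12 kept their call after both renewed normalisations. In df/+ all 12 were also below the mean of the same +/+ mice, at 69% (Prps2) to 86.6% (Hsph1). Because those +/+ values also served to name the 12, the df/+ values are no separate support. Prps2, which makes the sugar phosphate from which nucleotides are built, read 9.16, 9.03 and 9.06 in dp/+ and 9.57, 9.6 and 9.7 in +/+. It was at 68.7% of +/+ (limma adjusted p = 0.00415), and the call held under all 18 alternatives tried. The df/+ mice, compared with the same +/+ mice, read 9.06 and 9.12.

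Genes of RNA and DNA handling were among the 12. Ncbp2, the small subunit of the nuclear cap-binding complex, read 8.86, 9.11 and 8.94 in dp/+ and 9.6, 9.8 and 9.42 in +/+, or 64.3% (limma adjusted p = 0.00415). Sde2, a protein of replication and splicing, was at 69.2% (0.0064). Nabp1, a single-strand DNA binding protein, had the lowest share, with 7.89, 8.19 and 7.94 in dp/+ against 8.76, 8.79 and 8.61 in +/+, or 61.1% (0.00647). The zinc finger genes Zfp58 and Zfp949 were at 71.9% and 68.3%. The groups did not overlap for any of these 5 genes, which the rule that named them required.

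Other members of the 12 act in survival, protein folding and metabolism. Bcl2, which restrains apoptosis, read 9.0, 9.1 and 9.02 in dp/+ and 9.72, 9.61 and 9.72 in +/+, or 64% (limma adjusted p = 0.00745). Hsph1, a chaperone of the heat shock protein 110 family, read 9.56, 9.59 and 9.48 against 10.17, 10.05 and 10.09, or 67.8% (0.00708). P4ha1, a collagen prolyl hydroxylase, was at 67.5%, Nipa1, a magnesium transporter, at 67.2%, Pgm3, of amino sugar synthesis, at 72.9% and Stk32a, a kinase, at 72.4%. Without +/+ mouse 2, Prps2 and Nabp1 alone of the 12 stayed past the threshold.

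Brighter genes that rose were fewer, and the 12 named were at 131% to 247% of +/+. All 12 kept their call after both renewed normalisations and lost it without +/+ mouse 2. In df/+ all 12 were also above the mean of the same +/+ mice, at 105% (Cd276) to 239% (Gm10874). Here too the 12 were named by those +/+ values, so the df/+ values are no separate support. Fabp7, the fatty acid binding protein of Bergmann glia, read 12.66, 12.7 and 12.62 in dp/+ and 12.02, 12.08 and 12.47 in +/+, or 139% (limma adjusted p = 0.0227). The dp/+ mice lay close together, and the call was lost without dp/+ mouse 1, +/+ mouse 1 or +/+ mouse 2. Tnfaip8l2, a regulator of immune cells, read 8.65, 8.36 and 8.59 against 8.04, 7.98 and 7.96, or 145% (0.0107). Kcng1, a modifier subunit of potassium channels, was at 135%, Cd276, an immune checkpoint protein, at 131%, and Rpl29, of the large ribosomal subunit, at 135%.

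The remaining 7 of these 12 were Nyx, a retinal leucine-rich repeat protein (158%), Prr7, a synaptic membrane protein (145%), Pate11 (173%), Olfr1174, an olfactory receptor (166%), and the predicted genes Gm10548 (171%), Gm10644 (220%) and Gm10874 (247%). Gm10874 read 8.77, 8.67 and 9.79 in dp/+ and 7.79, 7.5 and 8.04 in +/+. The df/+ mice read 8.59 and 9.47, also above all +/+ mice. The dp/+ difference of Gm10874 was -1.33, 0.68 and 0.18 in the olfactory bulb, cortex and brain stem, and that of Gm10644 was -0.70, 0.54 and 0.028.

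Among dim genes the 4 named that rose were Lrrc14b (138%), Olfr958 (152%), H2-M10.2, a class I-like histocompatibility gene (150%), and Klhl34 (189%), with limma adjusted p of 0.0107 to 0.0122. Klhl34 read 7.77, 7.56 and 8.05 in dp/+ and 6.86, 6.5 and 7.27 in +/+. Its df/+ values were 7.55 and 7.84, also above all 3 +/+ mice. The 4 named were at 117% (Olfr958) to 177% (Klhl34) of +/+ in df/+, against the same +/+ mice by which they were named. Receptors of smell and pheromones, which neurons of the cerebellum are not known to use, were listed as a group of dim genes. Of 1207 measured, 3 of them brighter, 137 rose and 1 fell, where 3.98% of dim genes were called higher, with a median difference of 0.22 against 0.11 for all dim genes. After quantile normalisation 23 rose and 2 fell, with a median of 0.095, and 0 passed without dp/+ mouse 1 or without +/+ mouse 2 (limma). Without dp/+ mouse 2, dp/+ mouse 3, +/+ mouse 1 and +/+ mouse 3, 49, 466, 50 and 19 rose. The part of the level shift in this list was not tested beyond these values.

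The 4 dim genes named that fell all kept their call after both renewed normalisations. In df/+ these 4 were also below the +/+ mean, at 64.4% (Zfp830) to 77.7% (Fkbp5). The same +/+ values served to name the genes, so the df/+ values are no separate support. Kcna4, a potassium channel subunit of A-type current, had the smallest p of all genes, with 6.24, 6.03 and 6.11 in dp/+ and 6.76, 6.86 and 6.62 in +/+. It was at 65.2% of +/+ (limma adjusted p = 0.00147), and the call held under all 17 alternatives that test dim genes. Zfp830 was at 62.9% (0.00482) with dp/+ values of 6.7, 6.68 and 6.76 and df/+ values of 6.75 and 6.75, and held under all 17 as well. Mir30b, a microRNA gene, read 7.51, 7.32 and 6.89 in dp/+ and 8.09, 8.15 and 7.76 in +/+, or 58.9% (0.00708). The fourth was Fkbp5.

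Fkbp5, a chaperone that tunes the glucocorticoid receptor and is itself induced by it, belongs to a list of 5 measured glucocorticoid-responsive genes, of which 4 fell. Over the array 5.13% of brighter and 1.38% of dim genes were called lower, and 4 of the 5 were brighter. It read 7.33, 6.84 and 7.08 in dp/+ and 7.65, 7.95 and 8.04 in +/+, or 57.5% (limma adjusted p = 0.00708). Zbtb16, a zinc finger transcription factor, read 8.95, 8.49 and 8.19 against 9.45, 9.25 and 9.76, or 52% (0.0122). Tsc22d3, which mediates effects of the hormone, was at 70.8% (0.034) and Pdk4, which restrains pyruvate oxidation, at 63.1% (0.049). In all 4 the groups were apart, where 33.0% of brighter and 7.60% of dim genes lay below without overlap.

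Sgk1, a kinase of the same list, was at 74.1% (limma adjusted p = 0.214) with dp/+ values of 10.24, 9.98 and 9.61 and +/+ values of 10.23, 10.45 and 10.45. The median difference of the 5 was -0.66, against -0.12 for all brighter genes. Fkbp5 and Zbtb16 alone were past the threshold after either renewed normalisation, and 0 of the 5 were without +/+ mouse 2 (limma). Without dp/+ mouse 1, 2 or 3 or +/+ mouse 3, 2 passed, and the median lay between -0.84 and -0.55. The summed signal of the 5 was 2842, 2275 and 1912 in dp/+ mice 1, 2 and 3, 3168 to 3920 in +/+, and 3157 and 2186 in df/+ mice 1 and 2. In the olfactory bulb, cortex (2 dp/+ mice) and brain stem, Fkbp5 differed by -0.23, -0.33 and -0.38, Zbtb16 by 0.016, -0.33 and -0.63, Tsc22d3 by -0.62, -0.24 and -0.28, and Pdk4 by -0.72, -0.35 and -0.58.

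Of 6 measured heat shock genes, all brighter, 2 fell and 0 rose, where 5.13% of brighter genes were called lower. At an unadjusted p below 0.05, 3 were lower, and 2667 of the brighter genes outside the segment had such a p in either direction. Dnajb1, a co-chaperone induced by heat, read 8.91, 8.56 and 8.59 in dp/+ and 9.24, 9.3 and 9.29 in +/+, or 66.5% (limma adjusted p = 0.017). Hsph1 is given above, and both kept their call after both renewed normalisations. Without dp/+ mouse 1, 1 of the 6 passed, and without +/+ mouse 2, 0 did (limma). Hspa8, the constitutive chaperone of its family, was at 104% and Hsp90aa1 at 109%, with limma adjusted p of 0.645 and 0.348. Hspa1a was at 84.5% (0.0948) and Hspb1, a small heat shock protein, at 121% (0.306). The summed signal, most of it from the brightest members, was 17810 to 17970 in dp/+ and 17120 to 18280 in +/+.

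The heat shock element, read as GAA, any 2 bases, TTC, any 2 bases and GAA on either strand, stands in 0.603% of all RefSeq promoter entries of 300 bases (250 before to 50 after the start). Entries were found for 4 of the 6 genes. Hsph1 alone holds it, and Dnajb1, Hspa1a and Hspb1 have no match of these letters in the window. In Hsph1 it lies after the start, from base 37 in the entry shown and base 16 in its other entry. The 30 bases around it are shown with the element in capitals, because Hsph1 is 1 of the 2 members that fell.
Hsph1, chr5:149636287-149636316, - strand: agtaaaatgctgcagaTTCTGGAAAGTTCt

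**Figure D4:**
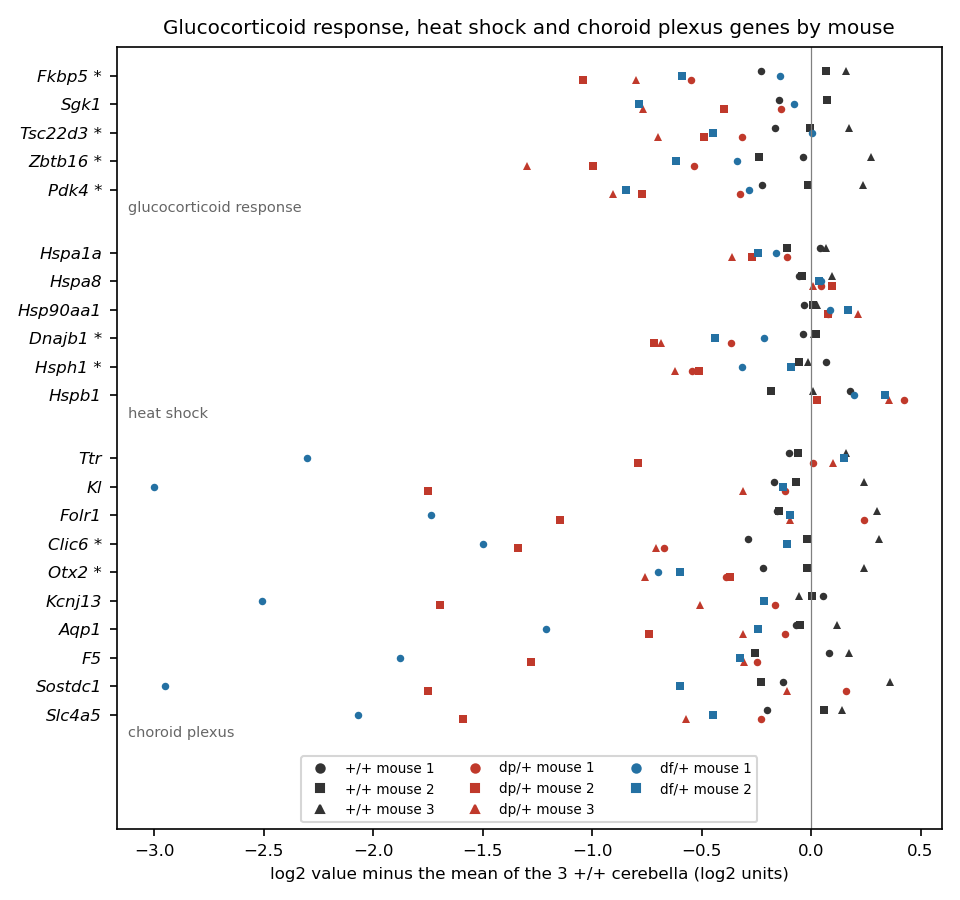
Values of the glucocorticoid response, heat shock and choroid plexus genes in each cerebellum, less the mean of the 3 +/+ cerebella (log2 units, horizontal axis), with a point per mouse and an asterisk at genes past the threshold. The glucocorticoid genes of dp/+ mice lie left of 0 in all 3 mice, while most choroid plexus genes are lowest in df/+ mouse 1 and next lowest in dp/+ mouse 2.

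The choroid plexus, which lies in the ventricles and can be taken with the cerebellum, was listed as another tissue that the dissection could hold. Its 10 measured genes had a median difference of -0.59. The transcription factor Otx2 (70.4%, limma adjusted p = 0.0275) and the channel protein Clic6 (53.4%, 0.0345) fell and none rose, while 5 of 10 were below all +/+ mice. Of the 10, 8 were brighter genes, of which 33.0% over the array lay below without overlap and 5.13% were called lower. The summed signal of the 10 was 18760, 9714 and 18150 in dp/+ mice 1, 2 and 3, against 18180 to 21640 in +/+ and 4330 and 19120 in df/+. In this sum, to which Ttr gives most, dp/+ mouse 2 and df/+ mouse 1 stood low. Gene by gene all 3 dp/+ mice were low in some members: Clic6 read 8.31, 7.64 and 8.27 in dp/+ against 8.69, 8.96 and 9.29 in +/+, and Otx2 9.51, 9.53 and 9.14 against 9.68, 9.88 and 10.14. Ttr, the transthyretin of this tissue, read 13.48, 12.68 and 13.57 in dp/+ and 13.37, 13.41 and 13.63 in +/+, which overlap. The median was -0.24 without dp/+ mouse 2, and 0 of the 10 passed after either renewed normalisation or without dp/+ mouse 1, +/+ mouse 2 or +/+ mouse 3 (limma). Without dp/+ mouse 2, dp/+ mouse 3 or +/+ mouse 1, 1 passed. In whole tissue, fewer cells of a type and less RNA per cell cannot be told apart.

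Markers of the cerebellum's own cells passed in few cases. The unadjusted counts of these and the later lists stand beside 5679 of all 19938 genes at an unadjusted p below 0.05. Of the brighter genes outside the segment 2667 had such a p, and 9969 genes were brighter in all. Of granule cell genes 0 of 16 passed (limma, 1 higher at an unadjusted p below 0.05), with a median difference of 0.084. Gabra6, the receptor subunit of granule cells, read 12.48, 12.71 and 12.63 in dp/+ and 12.37, 12.45 and 12.55 in +/+, which overlap. Of Purkinje cell genes 0 of 14 passed (2 lower unadjusted), with a median of -0.023. Homer3, a scaffold of Purkinje cell spines, came closest, at 80.5% (limma adjusted p = 0.0543), and Calb1, the calcium buffer calbindin, was at 107%. Of markers of inhibitory interneurons 0 of 13 passed (4 lower unadjusted), with a median of -0.16, against -0.12 for all brighter genes.

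Glia and vessels gave single calls. Of 13 astrocyte and Bergmann glia genes, all brighter, 1, Fabp7, rose (2 higher and 1 lower unadjusted), where 0.592% of brighter genes were called higher. The median of the 13 was 0.033. Myelin genes passed in 0 of 14 (0 at an unadjusted p below 0.05), with a median of 0.086. Microglia markers passed in 0 of 13 (1 higher and 1 lower unadjusted), where Cx3cr1, the fractalkine receptor, was at 121% (limma adjusted p = 0.0628) and was past the threshold after both renewed normalisations. Endothelial genes passed in 0 of 10 (2 lower unadjusted). Oligodendrocyte precursor markers passed in 0 of 4 (1 lower unadjusted), and those of unipolar brush and nuclear neurons in 0 of 5 (1 lower unadjusted). The 1 measured red blood cell gene, Alas2, did not pass. Of 10 genes of mural cells and fibroblasts the collagen Col3a1 rose to 128% (0.049) and Lum, a proteoglycan, fell to 70.8% (0.0257). Both are dim genes, of which 3.98% were called higher and 1.38% lower. Lum kept its call after both renewed normalisations, whereas Col3a1 (0.0513 and 0.0727) did not and lost it in 13 of 17 alternatives. Markers of the forebrain (0 of 8 passed, 1 higher unadjusted) and of the adjacent brain stem (0 of 11, 1 higher unadjusted) were mostly dim.

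Pathways tied to the segment's genes were listed too. Of 13 genes of the MAP kinase chain, in which Mapk3 of the segment acts, 12 were brighter genes, of which 5.13% over the array were called lower. In the chain 2 fell and 0 rose: Spry4, an inhibitor of receptor signalling (64.9%, limma adjusted p = 0.0185), and Map2k6, a kinase of the p38 branch (78.1%, 0.027). Spry4 read 8.88, 8.44 and 8.11 in dp/+ and 9.13, 9.04 and 9.13 in +/+. Neither passed after the renewed normalisations or without +/+ mouse 2, and 1 of the 2 did without dp/+ mouse 1, dp/+ mouse 2, +/+ mouse 1 or +/+ mouse 3. Of 6 genes of the Kctd13, Cul3 and RhoA group 0 passed (limma, 2 lower unadjusted): Cul3 was at 92.5% and Rhoa at 102%. Immediate early genes passed in 0 of 13 (0 unadjusted). Among 12 clock genes, all brighter, Bhlhe41 fell (75.3%, limma adjusted p = 0.0324), and it did not pass after quantile normalisation (0.192) or cyclic loess (0.19) and lost the call in 11 of 18 alternatives. Among 21 glutamate receptor genes, all brighter, Grm8 fell (75.5%, 0.0194), and it did not pass after cyclic loess (0.0648). Both counts stand beside 5.13% of brighter genes called lower. Genes of GABA-A receptors passed in 0 of 10 (0 unadjusted). Of the small nucleolar and Cajal body RNA genes 5 of 54 fell and 1 rose, where 3.26% of all genes were called lower and 2.29% higher. Snord104 was at 54.6% (0.0209) and passed after both renewed normalisations, and Snord57 was at 152% (0.0283) and did not pass after cyclic loess (0.0506). For Snord104 the dp/+ mice also differed by -0.78, -0.57 and -0.79 in the other regions.

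The last comparison asked where the cerebellar difference departs from that in the other regions of the same mice. For 5 genes, 0.0251% of all, the difference in the cerebellum was apart from the mean difference in the olfactory bulb, cortex and brain stem (limma interaction, adjusted p below 0.05), and 2272 had an unadjusted p below 0.05. All 5 were lower in the dp/+ cerebellum. Kcna4 read 6.03 to 6.24 there against 6.62 to 6.86 in +/+, while in the olfactory bulb it read 10.02 to 10.24 against 9.95 to 10.12. In the brain stem the dp/+ mice were also below the +/+ mice without overlap, at 8.39 to 8.55 against 8.71 to 8.82 (difference -0.28), and in the cortex the difference was -0.089. Mir30b, whose cerebellar +/+ values of 7.76 to 8.15 were the highest of the 4 regions, differed by -0.76 in the cerebellum and by 0.15, 0.03 and -0.027 in the others.

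Prps2 differed by -0.54 in the cerebellum and by -0.031 to -0.039 elsewhere. Svep1, a large extracellular matrix protein, read 9.8, 9.7 and 9.66 in dp/+ and 10.41, 10.25 and 9.93 in +/+ cerebella, and 7.27 to 7.76 in the other +/+ regions. Igfbp5, a binding protein of insulin-like growth factors, read 10.28, 10.22 and 10.18 in dp/+ against 10.67, 10.63 and 10.56 in +/+, with 10.9 and 10.88 in df/+. In the cerebellum the groups were apart for all 5, where 33.0% of brighter and 7.60% of dim genes lay below without overlap. The interaction that named the 5 uses these same cerebellar values, so the lack of overlap is no separate result. The interaction calls changed with the setting: 0 passed after cyclic loess (limma, 1957 at an unadjusted p below 0.05), 1 after quantile normalisation within regions, and 0 without the block for the mouse. None passed without dp/+ mouse 1, dp/+ mouse 2, +/+ mouse 1 or +/+ mouse 2, whereas 183 did without dp/+ mouse 3 and 20 without +/+ mouse 3.

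**Figure D5:**
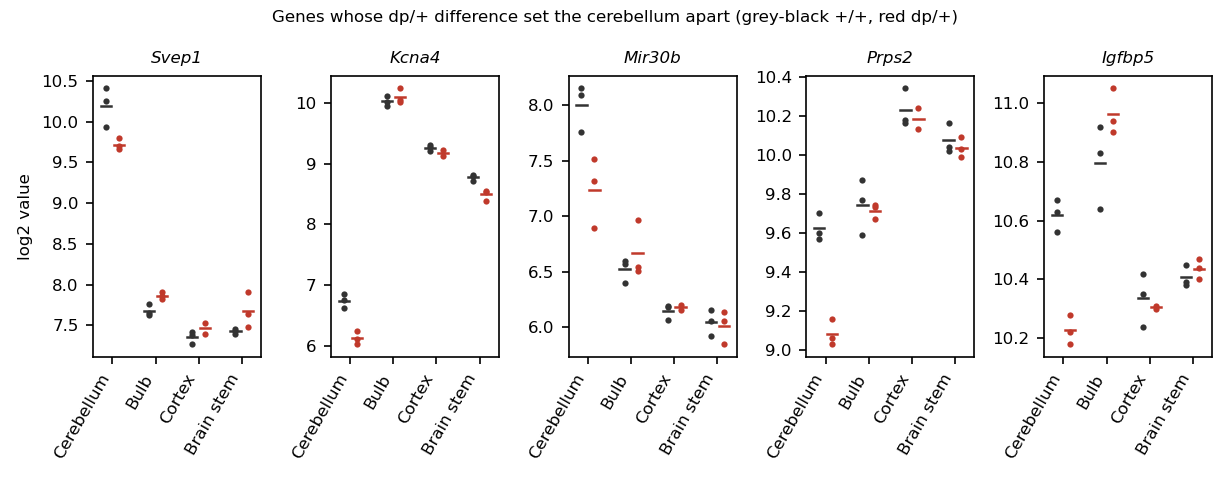
Log2 values (vertical axis) of the 5 genes whose dp/+ difference in the cerebellum was apart from that in the other regions, with a point per mouse and a bar at the mean, for +/+ (dark) and dp/+ (red). Each panel has its own scale, and the dp/+ and +/+ points are apart in the cerebellum for all 5 genes. The test that named the genes uses these cerebellar values.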

How the data were processed

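RNA of 4 brain regions of 8 mice was measured on 37 arrays, which give 31 region samples. The deposited log2 values were made by the authors with RMA in Affymetrix Expression Console, per the submitters' processing notes, whose versions are not given in the sources used here. The log base was read from the range of the values. RMA normalises arrays jointly, which compresses differences and can leave shifts that depend on level.

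Of 35556 probe sets, 21789 had 1 gene symbol in the platform annotation, 1621 several and 12146 none. The probe set with the highest mean stood for each of 19938 genes. Arrays of 1 extract were averaged first (6 samples had 2). A mean for each region and genotype was fitted to all 31 samples in limma 3.58.1 (R 4.3.3) with the mouse as a random block (correlation 0.12), and p-values were adjusted by Benjamini-Hochberg over all genes at 0.05. Intervals are 95%. The interaction set the cerebellar difference against the mean of that in the other 3 regions. The fit was tested on simulated data, which held no shift with level and so cannot speak to that shift. Of 50 genes changed by 0.3 log2 it called 3, and of 50 changed by 0.5 it called 32. Of 19738 unchanged genes it called 2.

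All duplicated genes were named. Outside them the text names up to 12 brighter and 4 dim genes per direction, by smallest p among calls without overlap. It names up to 6 genes for the interaction, and up to 4 of each list (up to 3 where none passed). Not every list member that this rule picks is printed. Gabra6, Calb1, Cul3, Rhoa, Sgk1, Ttr and heat shock members that did not pass were added after their values were seen. Snord57 was added then too, though the rule also picks it. The members and the 25 lists were chosen with earlier results of these data known. No column lay outside the samples. Replicates are separate mice by the labels.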

Additional observations from a re-analysis of the deposited data

Results flagged for a closer look

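In 5 genes the dp/+ difference in the cerebellum was apart from the mean difference in the other 3 regions by the interaction test itself (limma, adjusted over all genes). The interaction was -0.65 log2 for Svep1, -0.52 for Kcna4, -0.8 for Mir30b and -0.51 for Prps2, each with an adjusted p of 0.039, and -0.45 for Igfbp5 with an adjusted p of 0.0445. All 3 dp/+ cerebella were below all 3 +/+ cerebella in each of these genes, where 20.3% of all genes lay below without overlap. The interaction is computed from these same cerebellar values, so the lack of overlap is no separate result. The dp/+ difference of Svep1 was 0.19, 0.11 and 0.25 in the olfactory bulb, cortex and brain stem, against -0.48 in the cerebellum. The cortex had 2 dp/+ mice, and the other regions had 3.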

How the results depend on the processing

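The difference of the segment's mean kept its direction under every alternative tried, between 0.28 and 0.39, with 0.29 to 0.32 when 1 mouse was left out. The count of called duplicated genes, 10, was 6 with the first array of each sample, 20 with arrays centred on their medians and 19 with array weights, and 1 to 10 when 1 mouse was left out. Centring moved the median difference of all genes to 0.067. Called brighter genes outside the segment, 562, numbered 251 with first arrays, 124 after quantile normalisation within regions, 132 after cyclic loess, 1802 with array weights, and 3 to 495 without 1 mouse. Called dim genes, 533, numbered 212, 204, 187 and 2156 under the same settings, 1784 with centred arrays, 312 and 818 in the fits of 8 and 6 cerebella, and 2 to 898 without 1 mouse. The 5 interaction genes numbered 1 with first arrays, 1 after quantile normalisation, 9 with centring, 0 after cyclic loess (limma, 1957 at an unadjusted p below 0.05), 0 without the block for the mouse (1829 unadjusted), 127 with array weights, and 0 to 183 without 1 mouse. Each cause was not tested. Replicate numbers were checked for pairing: deviations of same-numbered dp/+ and +/+ cerebella correlated at 0.26, 0.23 and -0.10. Differently numbered mice 1 and 2 correlated at -0.29 and -0.3, and differently numbered pairs with a mouse 3 at -0.024 to 0.13. These values do not settle whether the numbers pair the mice. The labels give separate mice, and the main fit did not pair them. With the replicate number as a replicate block the counts were 3 duplicated, 131 brighter, 102 dim and 1 interaction gene, and the difference of the segment's mean between same-numbered mice was 0.30.

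Differences near 0 changed sign. Slx1b was -0.012 with first arrays, -0.067 without dp/+ mouse 2 and -0.019 without +/+ mouse 3, and ran from -0.067 to 0.13 when 1 mouse was left out. Hirip3 was -0.018 after cyclic loess. Cd2bp2 was 0.084, 0.019 and 0.02 after quantile normalisation, centring and cyclic loess. Mylpf was -0.019 with first arrays, -0.054 after quantile normalisation and -0.055 after cyclic loess. Alas2 was 0.02 without +/+ mouse 1 and ran from -0.24 to 0.02 when 1 mouse was left out. Over all named genes and alternatives, 1973 values kept direction and side of the threshold, 291 lost the call, 69 gained it and 11 changed sign. With 3 mice a group, a missed call does not show an unchanged level.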
